A study of Mus musculus with 40 samples.

Results

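The MHC class II genes of the mouse brain were followed across age, diet and the loss of Ttpa, in 7 genes chosen by name: the invariant chain gene Cd74, the chain genes H2-Aa, H2-Ab1 and H2-Eb1, the peptide editor genes H2-DMa and H2-DMb1, and the regulator Ciita. All 7 genes were on the arrays, through 8 of the 55589 probes and among 36362 gene names, and their transcript identifiers carry the same symbols in RefSeq. Each of 40 Agilent 1-colour arrays held RNA from cerebral cortex or cerebellum, and there were 10 groups of 4 arrays, the same conditions in both regions. Wild-type mice were 2 or 29 months old on normal chow with 36 mg of alpha-tocopherol/kg, or 29 months old on chow deficient in alpha-tocopherol. Ttpa-/- mice, all 29 months old, ate either deficient chow or supplemented chow with 600 mg of alpha-tocopherol/kg. All mice had the C57Bl/6 background. Ttpa encodes the alpha-tocopherol transfer protein, which moves vitamin E from the liver into the circulation, and Ttpa-/- mice lack a working copy. The labels give neither the sex of the mice nor whether an array holds RNA of 1 animal, and no young Ttpa-/- or young deficient group was among the arrays. P-values therefore measure the spread between arrays.

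MHC class II molecules are pairs of an alpha and a beta chain that show peptides from the endosome to CD4 T cells. The invariant chain, the product of Cd74, holds a new pair together, fills its groove and leads it to the endosome. There proteases such as cathepsin S cut the invariant chain down to a short peptide, and the H2-DM pair, H2-DMa with H2-DMb, exchanges that peptide for others. The H2-O pair, H2-Oa with H2-Ob, restrains H2-DM. Ciita, the class II transactivator, does not bind DNA itself but joins RFX, CREB and NF-Y on a shared pair of promoter elements, the X box and the Y box, and interferon gamma is a strong inducer of it. In the brain, class II is found mainly on microglia and on macrophages and dendritic cells of the meninges, choroid plexus and perivascular space. The C57BL/6 strain has no working H2-Ea gene, so its H2-Eb1 chain has no partner of the same isotype at the cell surface.

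Promoter windows of 4 of the 7 genes, as given in RefSeq, were read for letters of the elements named above. They run from 250 bases before the start of the transcript to 50 after it (GRCm38.p6). H2-Ab1 and Ciita had no window and Cd74 was left out of the reading, so these 3 are given by name only. Of the 5 windows, the 3 that carry a Y box close to the start are shown 5′ to 3′ on the gene's own strand, with GATTGG (on either strand) and the letters AACTGATGATGCT or TGACGTCA in capitals. H2-Aa lies at chr17:34287774-34288073 on the minus strand, H2-Eb1 at chr17:34305617-34305916 and H2-DMb1 at chr17:34152941-34153240, both on the plus strand.
H2-Aa: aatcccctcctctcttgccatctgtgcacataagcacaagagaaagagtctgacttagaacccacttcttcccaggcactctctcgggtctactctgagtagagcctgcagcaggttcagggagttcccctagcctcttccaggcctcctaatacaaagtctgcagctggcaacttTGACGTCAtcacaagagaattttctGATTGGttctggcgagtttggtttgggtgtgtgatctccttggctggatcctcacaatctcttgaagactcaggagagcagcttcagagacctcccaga
H2-Eb1: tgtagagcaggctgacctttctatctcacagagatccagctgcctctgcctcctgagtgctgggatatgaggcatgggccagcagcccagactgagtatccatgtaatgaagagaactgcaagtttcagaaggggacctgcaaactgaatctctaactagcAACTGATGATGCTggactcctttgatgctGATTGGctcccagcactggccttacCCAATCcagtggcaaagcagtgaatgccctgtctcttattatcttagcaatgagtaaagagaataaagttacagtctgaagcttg
H2-DMb1: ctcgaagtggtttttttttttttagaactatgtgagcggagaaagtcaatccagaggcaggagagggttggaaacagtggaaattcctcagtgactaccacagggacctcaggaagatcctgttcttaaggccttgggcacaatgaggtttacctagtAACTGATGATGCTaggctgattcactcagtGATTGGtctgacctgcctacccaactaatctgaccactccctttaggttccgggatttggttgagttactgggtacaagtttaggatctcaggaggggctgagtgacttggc

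The Y box letters GATTGG, which contain the reverse of the CCAAT motif, began at position -49 from the start in H2-Aa, -60 in H2-Eb1 and -62 in H2-DMb1, and a further reverse copy lay at -35 in H2-Eb1. GATTGG was found on either strand in 16.1% of all 32851 windows of that length, and CCAAT in 37.4%. The longest run of letters shared by H2-Eb1 and H2-DMb1 was the 13 bases AACTGATGATGCT, at -89 and -92 before GATTGG, where the X box of class II genes is known to lie, and 0.00913% of all windows held it, 3 in number. H2-Aa held TGACGTCA, the palindrome read by CREB, at -74, and 1.79% of all windows held it. From the end of these letters to GATTGG lay 17 bases in H2-Aa, 16 in H2-Eb1 and 17 in H2-DMb1. The shared run was read from these windows, so its presence in both is no finding, and TGACGTCA was picked out after they had been read. Of the other letters searched on both strands, AGCAAC was found in H2-Eb1, overlapping the shared run (14.8% of all windows), and CCTAGCAAC (0.804%) and the interferon gamma activated letters TTCNNNGAA (8.3%) were in none of the 5 windows. H2-DMa has 2 annotated starts. The window of the first, chr17:34122582-34122881, held none of these letters, and that of the second, chr17:34125268-34125567, held GATTGG at -199 and neither the shared run nor TGACGTCA. A match of letters is a description of the sequence and was not tested as a site.

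By the positions in the files (mm9), the H2-DMa, H2-DMb1, H2-Ab1, H2-Aa and H2-Eb1 probes lie in this order along chromosome 17, from 34274300 to 34453134. The Cd74 probe lies on chromosome 18 (60972075 to 60972132) and that of Ciita on chromosome 16 (10526568 to 10526627). Each is a 60-base probe to the spliced transcript, and the H2-DMa probe, from 34274300 to 34274863, spans 564 bases of the genome and so crosses an intron. H2-Ab1 had 2 probes that share 51 bases of the genome and are not independent. The brighter one stands for the gene below. A level is the log2 background-subtracted intensity relative to the 75th percentile of its own array, which is set to 0, and levels of different probes cannot be set against each other. Cd74, H2-Ab1, H2-Eb1, H2-DMa and H2-DMb1 were well above background on all 40 arrays and H2-Aa on 38. The Ciita probe was above background on 3 of 40 arrays.

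On the 40 arrays the 75th percentile of the intensity was 365 to 925, the share of probes above background ran from 51.4% to 61.4%, and the lowest correlation between arrays of a group was 0.973. Of 2 probes for Ttpa, the deleted gene, one was above background on 1 of 40 arrays and checks nothing. The other was above background on 13 of 24 wild-type and 1 of 16 Ttpa-/- arrays, and in the cerebellum its level was -3.01 ± 0.26, -3.34 ± 0.26 and -3.78 ± 0.44 (SD, n = 4) in the wild-type groups against -6.76 ± 0.30 and -5.67 ± 0.68 in the Ttpa-/- groups. In the cortex this probe was above background on 1 array, of the wild type on the deficient diet. By detection it therefore checks the genotype in the cerebellum only. The regions carried their markers: the cerebellar list, with Gabra6 and Cbln1, summed to 502 to 706 times the 75th percentile in the cerebellum and 7.19 to 10.9 in the cortex. The arrays lay on 5 slides with 2 groups a slide. Aged and young cortex shared a slide, as did normal and deficient wild-type cerebellum, deficient and supplemented Ttpa-/- cerebellum, and deficient wild-type with supplemented Ttpa-/- cortex. For all other comparisons, slide and condition cannot be told apart. In particular, all aged wild-type cerebellar arrays were on one slide and all Ttpa-/- cerebellar arrays on another. Fewer cells of a type and less RNA per cell cannot be told apart in RNA of whole tissue.

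Most of the class II genes were higher in aged than in young cortex. From 2 to 29 months, 5 of the 6 members that could be tested were up-regulated in wild-type mice on the normal diet, by 2.2-fold (H2-DMb1) to 3.57-fold (Cd74), and both groups lay on one slide. H2-DMa was the exception, and Ciita was too dim to test. H2-Aa, above background on 2 of 4 young arrays, could be tested through the aged group alone. A gene was called when limma's p, adjusted by Benjamini-Hochberg over all probes tested, was under 0.05 and the fold change over 1.5, a rule that called 1.59% of all 28043 probes tested as higher.

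The invariant chain gene Cd74 had levels of -1.83, -1.74, -1.49 and -2.41 on the young cortical arrays and 0.27, -0.01, -0.05 and -0.32 on the aged ones. No aged array was as low as any young one, and the difference was 1.84 (SE 0.31, adjusted p = 0.000224). H2-Aa, the alpha chain of the I-A molecule, was at -4.03, -4.31, -3.13 and -4.27 in young cortex, where 2 of the 4 arrays were above background, and at -1.79, -2.21, -2.43 and -2.13 in aged cortex, a difference of 1.80 (SE 0.33, adjusted p = 0.000833). The probe passed the filter on dim probes through the aged group alone, and with the other background correction, normexp, the difference was 0.65 (adjusted p = 0.0529) and not called. H2-Ab1, its beta chain, was at -0.66, -0.53, -0.65 and -1.22 in young and 1.22, 0.99, 0.69 and 0.65 in aged cortex. It rose by 1.65 (SE 0.28, adjusted p = 0.000274), and by 1.64 on its second probe. H2-Eb1, the beta chain of I-E, was at -0.17, -0.32, -0.33 and -0.90 in young and 1.15, 0.80, 0.56 and 0.73 in aged cortex, and rose by 1.24 (SE 0.32, adjusted p = 0.0179). For each of these 4 genes the young and the aged range were separate.

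The chains of the editor H2-DM parted. H2-DMb1 rose from -1.48, -1.39, -1.33 and -1.38 to -0.08, -0.19, -0.21 and -0.55, by 1.13 (SE 0.13, adjusted p = 9.65e-07). H2-DMa was at 0.21, 0.05, 0.09 and -0.04 in young and at 0.38, 0.22, 0.25 and 0.42 in aged cortex, a difference of 0.24 (SE 0.13, adjusted p = 0.383) with a 95% interval of -0.02 to 0.50. Young and aged arrays did not overlap for any of the 6 tested members, H2-DMa included, against 14.0% of all probes tested, and the exact two-sided permutation test gave each of them p = 0.0286, the smallest that 4 against 4 arrays can give. The median change of the 6 was 1.44, and that of all probes tested was -0.03. H2-Aa is in these counts and in the median though it passed the filter through the aged group alone, so it adds no support to them. The call of H2-Eb1 was lost without the young replicate 4 (adjusted p = 0.074), without the aged replicate 1 (0.0724) or with median scaling (0.0604), and that of H2-Aa with normexp, as given above.

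In the cerebellum all 6 tested members were up-regulated with age, by 1.61-fold (H2-DMa) to 4-fold (H2-Aa), where 3.99% of all 30627 probes tested were called higher. Young and aged groups were on different slides. Cd74 was at -1.52, -1.93, -2.12 and -1.45 on the young arrays and 0.75, -0.34, -0.60 and -0.76 on the aged ones, and rose by 1.52 (SE 0.31, adjusted p = 0.000829). H2-Aa went from -4.04, -4.11, -4.39 and -4.33 to -1.04, -2.16, -2.94 and -2.74, a rise of 2.00 (SE 0.33, adjusted p = 6.49e-05). In both genes one aged array, replicate 1, stood well above the other 3.

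H2-Ab1 was at -0.60, -0.71, -0.85 and -0.75 in young and 1.82, 0.64, 0.42 and 0.53 in aged cerebellum, and rose by 1.58 (SE 0.28, adjusted p = 0.000153). H2-Eb1 rose by 1.70 (SE 0.32, adjusted p = 0.000292), from -0.49, -0.79, -0.84 and -0.59 to 2.23, 0.84, 0.48 and 0.53. H2-DMb1 went from -2.51, -2.59, -2.36 and -1.97 to -0.40, -0.81, -0.85 and -0.74, by 1.66 (SE 0.13, adjusted p = 6.39e-11), and H2-DMa from -1.97, -2.08, -2.03 and -2.13 to -1.23, -1.29, -1.61 and -1.31, by 0.69 (SE 0.13, adjusted p = 0.000255). For all 6 members the young and aged arrays did not overlap, against 19.1% of all probes tested, and the median change was 1.62 against -0.01 for all probes. All 6 calls held when any array of the 2 groups was left out, and the methods' t-test called 4 of the 6 after adjustment. With normexp the rise of H2-Aa was 1.02 in place of 2.00 and still called. The call of H2-DMa was lost with normexp, where the change was 0.46, under the fold threshold.

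No member passed the test of a difference between the regions in the change with age. The rise of H2-DMb1 was 0.52 larger in the cerebellum (95% interval 0.14 to 0.91, adjusted p = 0.201) and that of H2-DMa 0.45 larger (0.08 to 0.81, adjusted p = 0.272). Their unadjusted p-values were 0.00952 and 0.0178 by limma, and the rule called 1.46% of all probes. Without the young cerebellar replicate 4 the difference of H2-DMb1 passed, at 0.65 (adjusted p = 0.042). For Cd74 the difference was -0.32 (-1.20 to 0.56), an interval wide enough to hold a change in either direction.

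**Figure D1:**
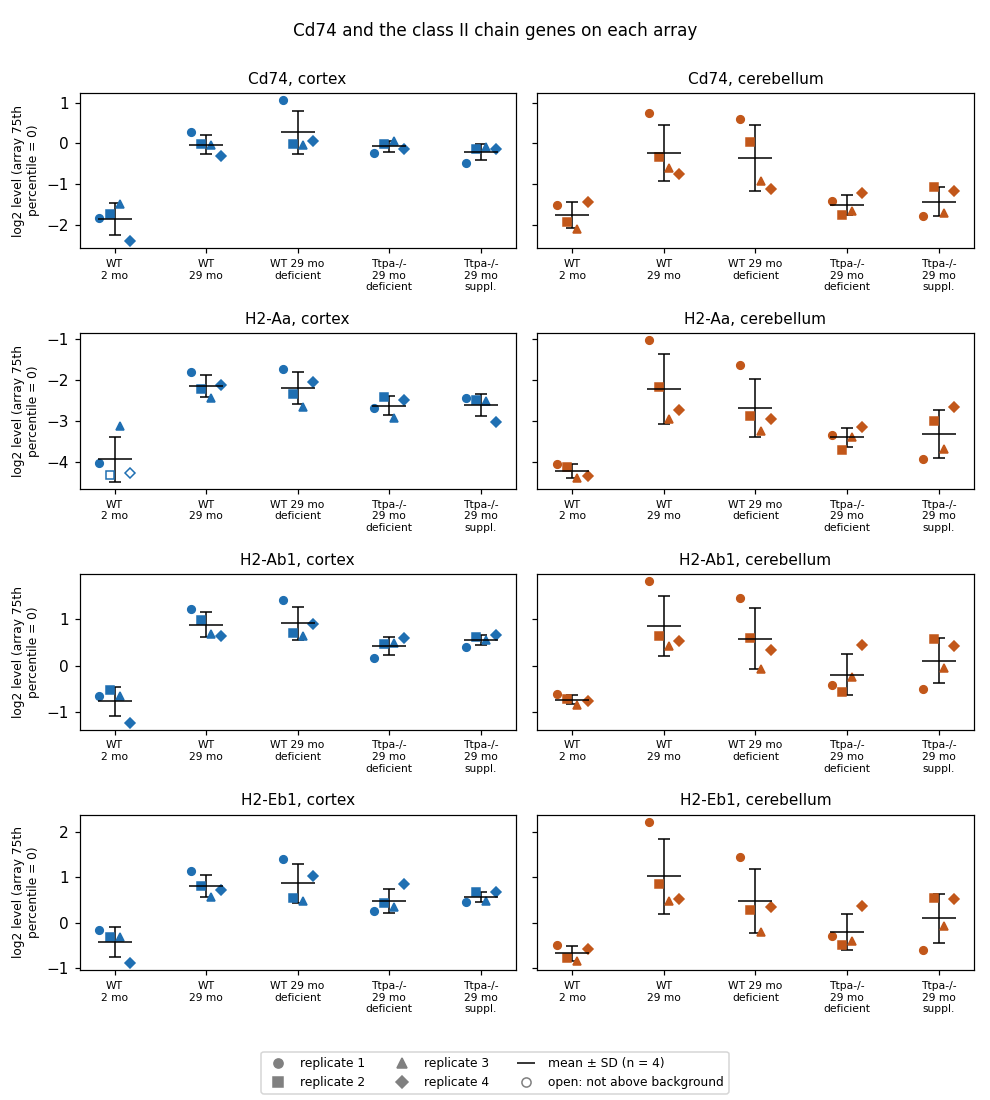
Level of Cd74, H2-Aa, H2-Ab1 and H2-Eb1 on each of the 40 arrays (y axis, log2 units, 0 = the array's 75th percentile) by group (x axis), cortex on the left and cerebellum on the right. Symbols mark the replicate number, open symbols values not above background, and bars the mean and SD of 4 arrays. Young arrays lie lowest in the cortex, and replicate 1 is the highest of the aged wild-type arrays on either diet in both regions.

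The high arrays of the chain genes carried the same number in both regions. Among aged wild-type arrays of the normal diet, replicate 1 was the highest of the 4 arrays for Cd74, H2-Aa, H2-Ab1 and H2-Eb1, in the cortex and in the cerebellum alike, which is 4 of 4 genes. On the deficient diet aged wild-type arrays showed the same, again for 4 of 4 genes. Levels of these 4 genes correlated at r = 0.902 to 0.982 within a region, so they are not 4 separate observations. The share of all probes with this trait was not counted. H2-DMb1 followed in both diets. For H2-DMa, replicate 1 was highest in both regions in neither diet. In the Ttpa-/- groups the same number was highest in both regions for 2 of 4 genes on the deficient diet and for 1 of 4 on the supplemented diet. Young wild-type arrays had 1 of 4. The labels do not say whether a number stands for 1 mouse. In the cerebellum the gap from replicate 1 to the next array was 1.39 for H2-Eb1 and 1.09 for Cd74 on the normal diet. The summed level of 12 microglial markers, weighted toward the brightest probes, was 243 on replicate 1 of the normal diet there. It was 255 to 287 on the other 3. The summed level of 7 B cell markers was 0.723 on that array and 0.259 to 0.423 on the others, and Fcrla was above background on none of the 4. On the deficient diet, replicate 1 of the cerebellum had 281 for the microglial and 0.428 for the B cell list, and replicate 2, at 328 and 0.645, had the highest of both. The part of microglia and B cells in the high values was not tested. An alternative added after the data were seen left out the replicate 1 arrays of all 4 aged wild-type groups. There 5 members were called with age in the cortex and 6 in the cerebellum. Leaving out arrays because they are high for these genes narrows the spread, so these counts are no support for the calls. H2-Eb1 rose by 1.125 in the cortex there (adjusted p = 0.00416). It rose equally without the aged cortical replicate 1 alone, where the adjusted p was 0.0724.

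**Figure D2:**
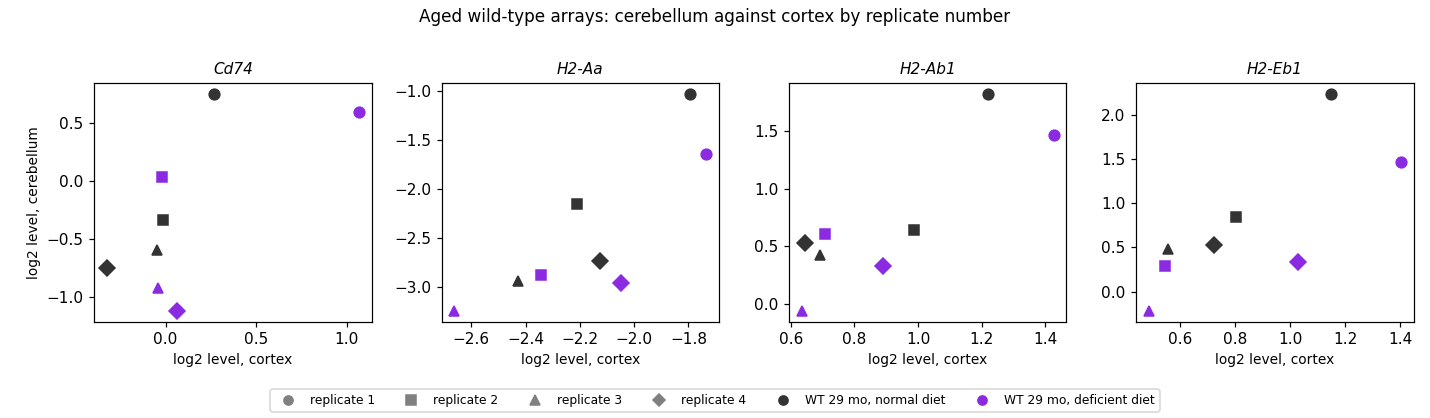
Level in the cerebellum (y axis) against that in the cortex (x axis), both in log2 units, for arrays of the same replicate number in the 2 aged wild-type diet groups. Each panel is 1 gene and each point 1 replicate number (symbol) in 1 diet group (colour); replicate 1 (circles) is at the upper right in each panel.

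Of the members, the editor genes differed between the regions. At 2 months H2-DMa was 4.37-fold lower in the cerebellum than in the cortex, at -2.05 ± 0.07 against 0.08 ± 0.11 (SD, n = 4), a log2 difference of -2.13 (SE 0.13, adjusted p = 8.35e-16). H2-DMb1 was 1.95-fold lower, at -2.36 ± 0.28 against -1.39 ± 0.06 (adjusted p = 1.8e-07). At 29 months H2-DMa was still 3.2-fold lower in the cerebellum (adjusted p = 4.11e-13), whereas H2-DMb1 differed by -0.44 (adjusted p = 0.00538), under the fold threshold. The regions differed in a large share of genes: 19.1% of all probes tested were lower in the cerebellum at 2 months and 15.8% at 29 months. Cd74, H2-Aa, H2-Ab1 and H2-Eb1 did not pass at either age. For Cd74 the difference was 0.11 (95% interval -0.51 to 0.74) at 2 months and -0.21 (-0.83 to 0.42) at 29 months. The regions were on different slides at both ages. Microglial markers differed as well: 10 of 12 were lower in the cerebellum at 2 months, with a median difference of -1.72, and 5 of 12 at 29 months, with a median of -0.38. The summed level of the list was 264 to 334 in the cortex and 226 to 244 in the cerebellum at 2 months, and 247 to 325 and 243 to 287 at 29 months. The part of these cells in the difference of the editor genes was not tested.

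**Figure D3:**
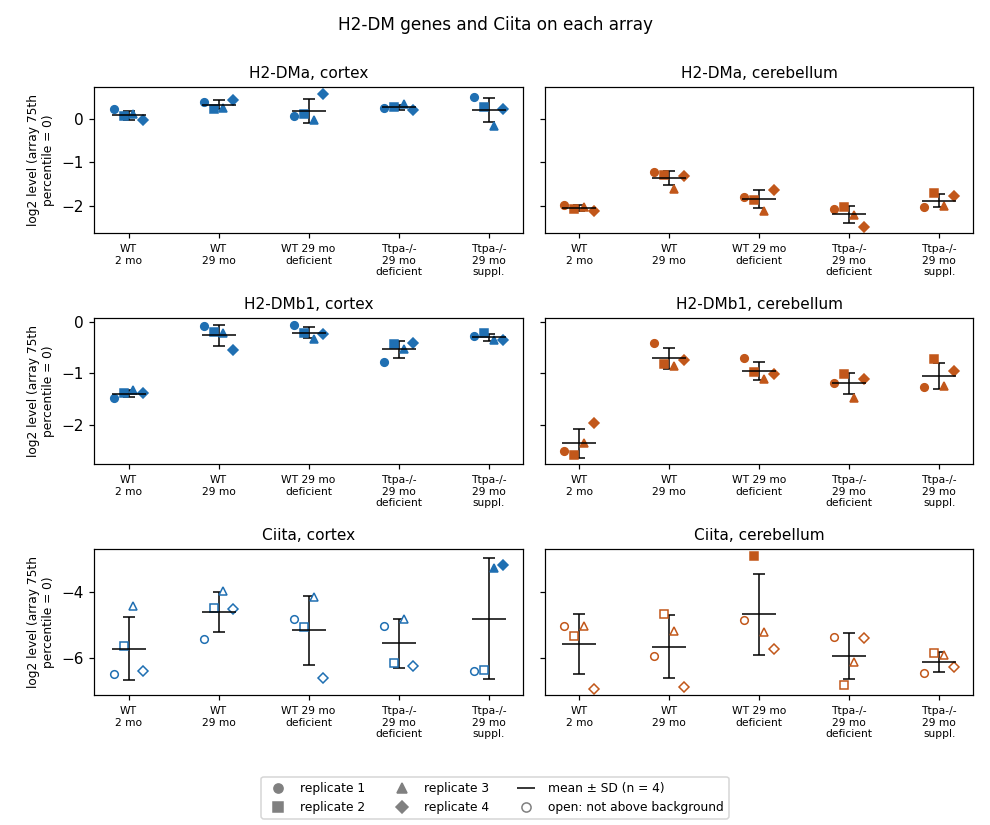
Level of H2-DMa, H2-DMb1 and Ciita on each of the 40 arrays (y axis, log2 units, 0 = the array's 75th percentile) by group (x axis), with symbols for the replicate number, open symbols for values not above background, and the mean and SD of 4 arrays. H2-DMa lies between -0.17 and 0.56 in the cortex and between -2.48 and -1.23 in the cerebellum, and Ciita is above background on 3 arrays.

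In the cerebellum of aged Ttpa-/- mice 5 of the 6 tested members were lower on the deficient diet, and 3 on the supplemented diet, than in the normal-diet wild type of that age. Set against the wild type on deficient chow 1, Cd74, was lower. H2-DMb1 was called in none of these. On the deficient diet 5 of the 6 tested members were down-regulated against wild-type mice on the normal diet, by 1.78-fold (H2-DMa) to 2.43-fold (Cd74), where 1.79% of all 30604 probes tested were called lower. Genotype and diet both differ in this comparison, and the groups lay on different slides. Cd74 was at -1.41, -1.77, -1.66 and -1.23 on the Ttpa-/- arrays, all below the aged wild-type arrays given above, and the difference was -1.28 (SE 0.31, adjusted p = 0.00563). H2-Aa was at -3.34, -3.70, -3.38 and -3.14, a difference of -1.17 (SE 0.33, adjusted p = 0.018).

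H2-Ab1, at -0.42, -0.56, -0.23 and 0.44, differed by -1.05 (SE 0.28, adjusted p = 0.0124), and its replicate 4 reached into the wild-type range. H2-Eb1, at -0.30, -0.50, -0.41 and 0.37, differed by -1.23 (SE 0.32, adjusted p = 0.0091). H2-DMa was at -2.07, -2.02, -2.22 and -2.48, against -1.23, -1.29, -1.61 and -1.31 in the wild type, and differed by -0.84 (SE 0.13, adjusted p = 4.77e-05). H2-DMb1, at -1.18, -1.02, -1.49 and -1.10, differed by -0.49 (SE 0.13, adjusted p = 0.0136), which is under the fold threshold. Ttpa-/- and wild-type arrays were fully apart for 5 of the 6 genes, against 17.0% of all probes, and the median change was -1.11 against -0.02.

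These calls rested in part on the high wild-type array. Without replicate 1 of aged wild-type cerebellum 2 members were still called, Cd74 and H2-DMa, and H2-Aa (-0.78, adjusted p = 0.119), H2-Ab1 (-0.72, 0.0845) and H2-Eb1 (-0.83, 0.0684) were not. A fit of the 2 groups alone called 1 member, H2-DMa, and the methods' t-test called 1 after adjustment. With normexp H2-DMa itself was at -0.54, under the fold threshold. Without the replicate 1 arrays of all aged wild-type groups, the alternative added after the data were seen, 4 members were called. There H2-Ab1 and H2-Eb1 again changed by -0.72 and -0.83, and only their adjusted p was lower (0.0348 and 0.025). Leaving out arrays because they are high for these genes narrows the spread, so this count is no support for the calls. Other markers moved with this difference. Of 12 microglial markers, 3 were lower in the Ttpa-/- cerebellum: Aif1 (-0.60), C1qa (-0.65) and C1qb (-0.81), and the summed level of the list was 201 to 278 against 243 to 287. Of 7 markers tested for macrophages of the brain's borders, Ms4a7 (-0.75) and Cbr2 (-0.62) were lower, with a summed level of 2.52 to 3.07 against 3.61 to 4.35 and Cd163 above background in neither group. Cd79b, a chain of the B cell receptor, was at least 3.03-fold lower and above background on 0 of 4 Ttpa-/- arrays, with the B cell list at 0.273 to 0.365 against 0.259 to 0.723. The B cell genes Ms4a1, Pax5, Blk and Fcrla were above background on no array of this Ttpa-/- group. In the wild type Ms4a1 was above background on 3 of 4 arrays, Pax5 on 2, Blk on 1 and Fcrla on none. No bound could be given for any of them. H2-Oa, a chain of the partner of H2-DM, was also lower (-1.50, adjusted p = 0.00114). Its probe passed background on 1 of 4 Ttpa-/- and 4 of 4 wild-type arrays, so it was tested through the wild-type group alone. The adjusted p of H2-Oa uses Ttpa-/- values not above background and is no support for a lower level. The part of these cells in the difference was not tested.

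In the cortex no member was called between Ttpa-/- mice on the deficient diet and wild-type mice on the normal diet, where 4.75% of all 28913 probes were called. By limma 1 member, H2-DMb1, had an unadjusted p under 0.05 (0.0498), and the methods' t-test called 0. Cd74 was at -0.23, -0.01, 0.07 and -0.13 in the Ttpa-/- cortex, a difference of -0.05 with a 95% interval of -0.67 to 0.58. H2-Ab1 was at 0.16, 0.47, 0.50 and 0.59, below every wild-type array (1 of 6 members, against 23.4% of all probes), with a difference of -0.46 (-1.03 to 0.11, adjusted p = 0.265). The 6 changes ran from -0.49 to -0.05 with a median of -0.31. Other genes of the lists were called there: Nfya, a subunit of NF-Y, was higher (0.79, 1 of 6 activators), as was Cd4 (0.72), and H2-Ob (-0.74), Itgax (adjusted p = 0.0165) and Lum, a matrix gene of the meninges (-0.73), were lower. Nfya was also higher in these Ttpa-/- arrays than in wild-type cortex on the deficient diet (0.98) and in Ttpa-/- cortex on the supplemented diet (0.72), comparisons that share the deficient Ttpa-/- arrays. The test of the difference between the regions called 1 member, H2-DMa, at -0.77 (SE 0.18, adjusted p = 0.00881), where 1.91% of all probes were called lower. That call was lost with median scaling (adjusted p = 0.124) and with normexp (0.0534). For Cd74 the difference was -1.23 (SE 0.43, adjusted p = 0.0768) and did not pass.

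Ttpa-/- mice on the supplemented diet had 3 of the 6 members lower in the cerebellum than wild-type mice on the normal diet, where 1.57% of all 31265 probes were called lower. Cd74 was at -1.77, -1.07, -1.72 and -1.16 and differed by -1.20 (SE 0.31, adjusted p = 0.00845). H2-Aa, at -3.92, -3.00, -3.67 and -2.66, differed by -1.09 (SE 0.33, adjusted p = 0.0248), and H2-Eb1, at -0.60, 0.54, -0.07 and 0.51, by -0.93 (SE 0.32, adjusted p = 0.0451). The arrays of H2-Aa and H2-Eb1 overlapped with the wild type. H2-DMa differed by -0.52 (adjusted p = 0.00621), under the fold threshold. None of the 3 calls held without replicate 1 of aged wild-type cerebellum, where Cd74 was at -0.87 (adjusted p = 0.065), or in a fit of the 2 groups alone. The calls of H2-Aa and H2-Eb1 were also lost without the wild-type replicate 2, without the Ttpa-/- replicate 1 or 3, or with median scaling, and that of H2-Eb1 with all dim probes kept. The groups were fully apart for 2 members, against 21.3% of all probes. The microglial list summed to 210 to 260 in these Ttpa-/- arrays and the border macrophage list to 3.17 to 3.65, with the wild-type values as above, and 0 of 12 microglial and 0 of 7 border macrophage markers tested were called. Lower in this Ttpa-/- group were H2-Oa (-0.87, adjusted p = 0.0445), Cd79b (-1.35, adjusted p = 0.0388, above background on 2 of 4 Ttpa-/- and 4 of 4 wild-type arrays) and Col1a1, a collagen gene of the meninges (-1.05, adjusted p = 0.0309). Cd79b was tested through the wild-type group alone, and its adjusted p uses Ttpa-/- values not above background. The B cell list summed to 0.242 to 0.566, against 0.259 to 0.723 in the wild type, and the list of the meninges to 29.3 to 40.2 against 30.5 to 37.9. The part of these cells in the difference was not tested. This comparison uses the same wild-type arrays as that with the deficient diet, so the 2 are not independent. In the cortex 0 of 6 members were called, and 0.0920% of all probes were. By limma 0 had an unadjusted p under 0.05, and the methods' t-test called 0.

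Within one genotype, diet changed no member past the threshold. In aged wild-type cerebellum, on one slide, the deficient diet gave Cd74 levels of 0.60, 0.03, -0.92 and -1.12, a difference of -0.12 from the normal diet with a 95% interval of -0.74 to 0.51. H2-Eb1, at 1.46, 0.29, -0.22 and 0.34, differed by -0.55 (-1.20 to 0.09). H2-DMa, at -1.80, -1.86, -2.12 and -1.63, lay below every array of the normal diet, as 16.8% of all probes were fully apart, and its difference of -0.49 (SE 0.13, adjusted p = 0.026) was 1.4-fold and under the fold threshold. It was called with median scaling (-0.67, adjusted p = 0.0397), which moved the median of all probes to -0.19. In this comparison 1.28% of all 30990 probes were called. In aged wild-type cortex the 6 changes ran from -0.15 to 0.30, and 0.223% of all 28254 probes were called. By limma 0 members had an unadjusted p under 0.05 there, and by the methods' t-test 0 were called.

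Between the deficient and the supplemented diet in Ttpa-/- mice 0 members were called in either region. In the cerebellum, on one slide, the changes ran from -0.32 (H2-DMa, adjusted p = 0.279, the arrays fully apart, as in 5.32% of all probes) to -0.08, and 0.343% of all probes were called. By limma H2-DMa alone had an unadjusted p under 0.05, at 0.0167, and the methods' t-test called 0. In the cortex they ran from -0.24 to 0.14, 3.31% of all probes were called, 0 members had an unadjusted p under 0.05 by limma, and the methods' t-test called 0.

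Set against wild-type mice on the same deficient diet, the Ttpa-/- cerebellum had 1 member lower, Cd74, with a difference of -1.17 (SE 0.31, adjusted p = 0.011), where 1.92% of all probes were called lower. It was lost without the deficient wild-type replicate 1 (-0.85, adjusted p = 0.0849) and in a fit of the 2 groups alone (0.167). H2-Ab1 differed by -0.78 (adjusted p = 0.0612). Cell markers were called here too. Cd79b was at least 2.24-fold lower and above background on 0 of 4 Ttpa-/- arrays, and Batf3, a regulator of dendritic cells, was lower (-0.74), whereas Cd79a (0.70), Cd4 (0.94) and the microglial gene P2ry12 (0.60) were higher. That is 1 of 12 microglial markers, whose summed level was 201 to 278 in Ttpa-/- and 250 to 328 in wild-type arrays. The border macrophage list, with 0 of 6 tested genes called, summed to 2.52 to 3.07 against 3.06 to 3.55, and the B cell list to 0.273 to 0.365 against 0.233 to 0.645. The part of these cells in the difference of Cd74 was not tested. In the cortex on the same diet 0 of 6 were called, against 3.07% of all probes. There 1 member, H2-DMb1, had an unadjusted p under 0.05 by limma (0.0221), and the methods' t-test called 0. In the cortical comparison on one slide, supplemented Ttpa-/- against deficient wild type, 0 were called, against 0.0316% of all probes, 0 had an unadjusted p under 0.05 by limma, and the methods' t-test called 0. Cd74 differed there by -0.48 with an interval of -1.11 to 0.14.

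**Figure D4:**
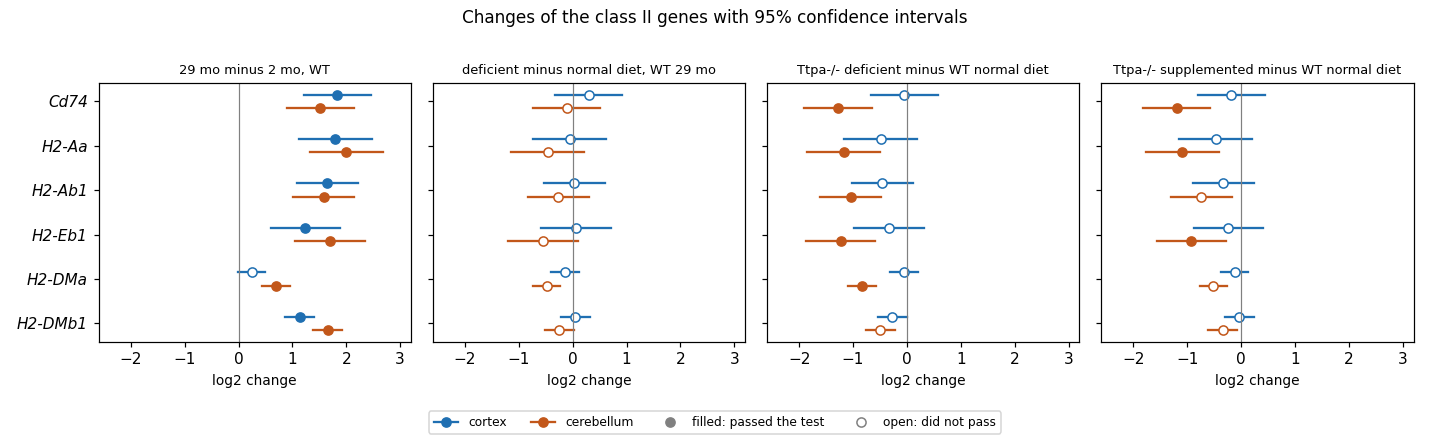
Log2 change (x axis) with its 95% confidence interval from limma for each tested member (y axis) in 4 comparisons, cortex in blue and cerebellum in orange. Filled points passed the test (adjusted p and fold change); with age all but H2-DMa in the cortex passed, and against the aged wild type on the normal diet the Ttpa-/- points that passed were all in the cerebellum.

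The order of the groups was much alike for most members. In the cortex the young group was the lowest for all 6 tested members, and for H2-DMa its arrays overlapped with those of the next group. The 4 aged cortical groups overlapped with their neighbours in this order, except for H2-DMb1, where deficient Ttpa-/- mice (-0.53 ± 0.17) lay below supplemented ones (-0.29 ± 0.07, SD, n = 4), as 19.0% of all probes tested between these groups did not overlap. In the cerebellum the aged wild type on the normal diet was highest for all 6, overlapping with the next group in all but H2-DMa (16.8% of all probes, as above), and the wild type on the deficient diet, the supplemented and the deficient Ttpa-/- mice came next in this order. The young group was lowest for 5, and H2-DMa was lowest in deficient Ttpa-/- mice (-2.20 ± 0.20), next to young wild-type mice (-2.05 ± 0.07). The lowest of the aged groups and the young group overlapped for Cd74, H2-Eb1 and H2-DMa.

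Ciita, the regulator of the other members, was near the limit of its probe. It was above background on replicates 3 and 4 of the supplemented Ttpa-/- cortex, at -3.26 and -3.16, and on replicate 2 of deficient wild-type cerebellum, at -2.89. On the other 37 arrays it lay between -6.94 and -3.97 and was not well above background. No comparison could test it, and no fold change is given. The probe starts at base 4063 of the transcript and is 65% A, and 100% of the other probes, after rounding, hold a smaller share of A.

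Other genes of the pathway rose with age as well, while no tested activator of class II genes was called. Among the endosomal proteases and reductases, 2 of 6 rose in the cortex, cathepsin S (Ctss, 1.08, adjusted p = 7.32e-06), which cuts the invariant chain, and Ifi30 (1.09), the lysosomal thiol reductase. In the cerebellum 2 of 6 rose, Ctss (2.24, adjusted p = 2.88e-13) and Ctsd (0.96). The rise of Ctss was 1.16 larger in the cerebellum by the test of the difference (adjusted p = 0.000931). Of the 2 testable partners, H2-Ob rose in the cortex (0.87, adjusted p = 0.042). H2-Oa, above background on 0 of 4 young and 4 of 4 aged arrays, was at least 2.25-fold higher in aged cerebellum. Its adjusted p there, 4.79e-05 by limma, uses the young values not above background and does not test that bound. H2-Ea-ps, the pseudogene left of the missing partner of H2-Eb1, was above background in no group.

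Among 7 tested genes of class II turnover and costimulation, Icosl rose in both regions (1.36 in the cortex and 0.97 in the cerebellum), and Cd86 (2.25, adjusted p = 2.77e-13) and Cd274 (1.53) rose in the cerebellum. Lag3, an inhibitory receptor of T cells that binds class II, rose by 0.81 in the cortex and 0.97 in the cerebellum, and Cd4 did not pass in either. Of 8 tested genes of the interferon gamma pathway, Irf8 rose in both regions (0.71 and 1.73) and Irf1 in the cerebellum (1.01), and Ifng was above background on 1 array of the 40. Of 6 tested activators of class II genes, 0 were called with age in either region. By limma 0 of the 6 had an unadjusted p under 0.05 in the cortex. In the cerebellum 3 did, Rfxap (-0.19), Nfyc (-0.50) and Creb1 (-0.46), the last 2 also after adjustment (0.000834 and 0.00546) but under the fold threshold. Medians of the lists in the cortex and the cerebellum were 0.27 and 0.40 for the processing genes, 0.25 and 0.12 for the interferon gamma pathway and -0.01 and -0.16 for the activators. All these lists were chosen with results of these data known.

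**Figure D5:**
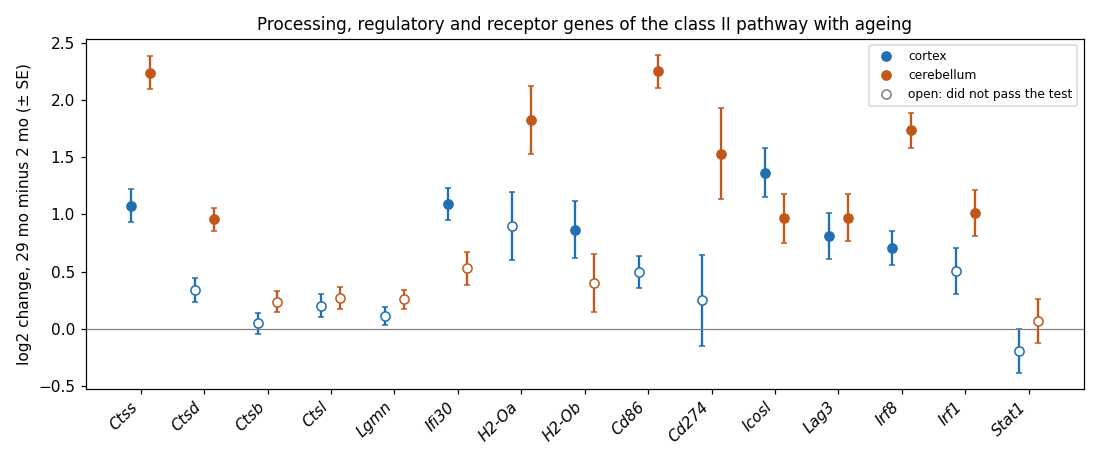
Log2 change from 2 to 29 months in wild-type mice (y axis, with SE) for 15 genes of antigen processing, class II regulation and T cell recognition (x axis), cortex in blue and cerebellum in orange. Open points did not pass the test; Ctss, Cd86 and Irf8 rose by 2.24, 2.25 and 1.73 in the cerebellum, and H2-Oa was not above background in young cerebellum, so its point there depends on background.

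Markers of the cells that carry class II moved with age too. Of 12 microglial markers 3 rose in the cortex, the complement genes C1qa (0.87), C1qb (0.76) and C1qc (0.73), and 9 in the cerebellum, by 0.79 (Csf1r) to 2.25 (C1qa). Their summed level was 264 to 334 in young and 247 to 325 in aged cortex, and 226 to 244 in young and 243 to 287 in aged cerebellum, with all 12 above background in each group. Of the border macrophage list, 2 of 6 tested rose in the cortex and 2 of 7 in the cerebellum, Ms4a7 by 0.97 and 2.22, with a summed level of 3.11 to 3.49 in young and 3.94 to 4.54 in aged cortex. In the cerebellum that level was 1.87 to 2.38 in young and 3.61 to 4.35 in aged arrays. Itgax, a gene of dendritic cells that activated microglia also express, was above background on 0 of 4 young arrays in either region and was at least 12.7-fold higher in aged cortex and at least 23.1-fold higher in aged cerebellum. It was 1 of 3 dendritic markers called among 6 tested in the cortex and of 2 among 5 in the cerebellum. Itgax in both regions and Cd209a in the cortex passed the filter on dim probes through the aged group alone. Their tests use young values not above background, so these counts are no support for a rise of dendritic cells. Batf3 rose in both regions (1.27 and 1.16), Cd209a was at least 4.27-fold higher in aged cortex, and Xcr1 and Clec9a, which define one class of dendritic cells, were above background on no young or aged wild-type array of the normal diet. The 9-gene dendritic list summed to 1.03 to 1.39 in young and 2.23 to 2.77 in aged cortex. In the cerebellum it summed to 4.34 to 5.81 in young and 4.85 to 5.22 in aged arrays. In the cerebellum the choroid plexus genes Ttr (-7.70) and Kl (-2.30) fell with age, with the 9-gene list at 30.6 to 391 in young and 23.8 to 26.9 in aged arrays. That is 2 of 8 tested genes of the list, and 1.04% of all probes were called lower. The blood genes Hbb-b1 (2.59) and Alas2 (2.67) rose there, 2 of 4 tested, with the list at 3.22 to 7.67 in young and 12.2 to 84.7 in aged arrays. In the cortex that list was at 0.52 to 2.04 in young and 4.75 to 11.2 in aged arrays. There 0 of 2 tested blood genes were called, Hbb-b1 (2.75, adjusted p = 0.068) and Hba-a1 (2.59, adjusted p = 0.0844), and Alas2, above background on 0 of 4 young and 3 of 4 aged arrays and not tested, was at least 1.57-fold higher. F13a1, a border macrophage gene, rose in the cortex (0.66) and Pf4 in the cerebellum (0.91), and the T cell gene Cd2, above background on 0 of 4 young arrays, was at least 2.31-fold higher in aged cerebellum. Cd3d and Cd247 were at least 1.42-fold and 1.65-fold higher there, and Cd8a was above background in neither group. The summed level of the 7-gene T cell list, weighted toward the brightest probes, was 4.85 to 5.74 in young and 4.61 to 6.63 in aged cerebellum. The part of these cells in the rise of the class II genes was not tested.

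Across the 40 arrays, which share groups and slides, the genes whose levels were most like those of Cd74 were other members. Of 16060 genes with a symbol and a measurable level, H2-Ab1 (Pearson r = 0.924), H2-Aa (0.906), H2-Eb1 (0.893) and H2-DMb1 (0.812) took the first 4 ranks, and H2-DMa (0.483) the rank of 912. The 6 genes next to the members were Mafk (0.812), Csf2rb (0.809), Gsdmd (0.797), Osmr (0.796), Hmox1 (0.792) and Socs3 (0.785). Within the 20 cortical arrays they were Stom (0.922), Lilrb4 (0.917), Ndn (0.917), Ppl (0.917), Icosl (0.908) and Lgals3bp (0.907), with a Spearman rho of 0.552 to 0.72, and H2-Aa was at rank 15 there. Within the 20 cerebellar arrays they were Srgn (0.85), Gm5637 (0.838), Gm7676 (0.834), Gm5077 (0.827), Ccl9 (0.826) and Alox5ap (0.819). H2-DMa was at rank 4145 in the cortex (r = 0.255) and 258 in the cerebellum (0.626), and H2-DMb1 at rank 118 in the cerebellum (0.681). These correlations are descriptions, with no test.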

How the data were processed

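The members and the gene lists were chosen with earlier results of these data known, and no list is independent evidence. The authors scanned Cy3-labelled arrays and deposited Agilent Feature Extraction tables (version 10.7.3.1 in the file headers, 10.1.1.1 in the submitters' processing notes) with background-subtracted intensity values, of which 16 of 61 columns were used here. The authors also deposited a table of log2 values, which matched the scanner's log2 intensity scaled to the 75th percentile and centred per probe (median absolute difference 0.00085), and it served as an alternative. Positions follow mm9, the build in the file headers. Of 62976 spots, flagged ones (95 to 148 an array) and controls were dropped, spots of a probe were averaged, and 55589 probes were kept. The number of arrays limits the precision.

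All 10 groups entered one limma fit (version 3.58.1, R 4.3.3) on log2 intensity minus the array's 75th percentile. A probe was tested where it was well above background on all 4 arrays of a compared group. A gene was called at a Benjamini-Hochberg adjusted p under 0.05, over all probes tested, with a fold change over 1.5. Every adjusted p comes from that fit or, where stated, from its alternatives. The brightest probe stood for a gene. A group with no array above background was given a bound, at least N-fold, from the higher of each array's lowest signal above background and the probe's own. The code was tested on simulated data. The text names every member, the called genes of the pathway lists (not between regions), examples from the marker lists, and the 6 genes most like Cd74. Same-numbered arrays correlated over 0.1 in every pair for 2 of 20 pairs of groups, a count that includes pairs of different mice. Between cortex and cerebellum of one condition, same-numbered arrays had mean correlations from 0.026 (young wild type) to 0.269 (deficient Ttpa-/-). Arrays of other numbers had -0.009 and -0.091 in these. Young and aged cortex, which are different mice, gave 0.236 against -0.078. Whether a number marks 1 mouse cannot be told from these values. The numbers were not taken to pair the samples, and tests between regions treated the arrays as independent.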

Additional observations from a re-analysis of the deposited data

Results flagged for a closer look

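In 6 of 80 sets of 4 arrays (8 probes in 10 groups) the highest or lowest array stood far from the other 3, and chance gives about 1 in 20. Cd74 was highest in replicate 1 of the deficient wild-type cortex, at 1.069, and lowest in replicate 1 of the supplemented Ttpa-/- cortex, at -0.492. H2-Aa was lowest in replicate 4 of the supplemented Ttpa-/- cortex, at -3.012. H2-Ab1 was highest in replicate 1 of the aged wild-type cerebellum, at 1.823, and its second probe was lowest in replicate 1 of the supplemented Ttpa-/- cortex, at 0.143. Ciita was lowest in replicate 4 of the young cerebellum, at -6.94, where it was not above background. For H2-DMa, the contrast of deficient Ttpa-/- with normally fed wild-type mice was itself unlike in the 2 regions, by -0.773 (cerebellum minus cortex), by limma's test of that difference.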

How the results depend on the processing

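Over the settings run, no call of a member changed direction. Counts of members called are given out of 6. With median scaling, deficient wild-type cerebellum against the normal diet had 1, supplemented Ttpa-/- against wild-type cerebellum 1, and the regional difference of the Ttpa-/- deficient effect 0. Normexp background correction also gave 0 for that regional difference, and array weights 2. Quantile normalization gave 2 for Ttpa-/- against wild type on the deficient diet in the cerebellum. With the compared groups alone, and equally with the methods' t-test after adjustment, the cerebellum had 1 for Ttpa-/- deficient against wild-type normal, 0 for supplemented Ttpa-/- against wild type, and 0 for Ttpa-/- against wild type on the deficient diet; the t-test called 4 with age in the cerebellum. Without the fold threshold, the deficient diet in wild-type cerebellum gave 1 and the regions at 29 months 2. With an unadjusted p and the fold threshold, Ttpa-/- against wild type on the deficient diet in the cerebellum gave 4, and the regional difference of the Ttpa-/- deficient effect 2. Without the replicate 1 arrays of the aged wild-type groups, left out after the data were seen, supplemented Ttpa-/- against wild-type cerebellum gave 1. The cause of these changes was not tested. Leaving out each replicate in turn gave 4 to 5 with age in the cortex, 6 to 6 in the cerebellum and 0 to 1 for their difference. It gave 2 to 5 for Ttpa-/- deficient against wild-type normal cerebellum (2 without wild-type replicate 1), 0 to 4 for supplemented Ttpa-/- cerebellum (0 without wild-type replicate 1, 4 without wild-type replicate 3) and 0 to 2 for Ttpa-/- against wild type on the deficient diet in the cerebellum (0 without wild-type replicate 1, 2 without wild-type replicate 3 or Ttpa-/- replicate 4). With the replicate block, ageing had 5 calls in the cortex and 6 in the cerebellum, the deficient Ttpa-/- cerebellum 5 and the supplemented one 3, and no call changed. The slide as a block could not be fitted and was not run. Median scaling moved the median of all probes by over 0.1 in deficient wild-type cerebellum (-0.19), Ttpa-/- against wild type on the deficient diet in the cerebellum (0.17) and supplemented Ttpa-/- against deficient wild-type cortex (-0.14). Signal over background limits Ciita, which no setting could test with the filter on dim probes, and H2-Aa in young cortex.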
